A study of Gallus gallus with 18 samples.

Results

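Neurotransmitter receptor genes were examined in chickens exposed to acute heat. They were taken as all genes whose symbol in the array's probe annotation begins with the letters of the glutamate (GRIA, GRIK, GRIN, GRM), GABA-A (GABR), glycine (GLRA), nicotinic (CHRN), muscarinic (CHRM), serotonin (HTR) or dopamine (DRD) receptor genes. This gave 77 genes of the 13009 that have a probe set with a single symbol. Of these, 75 are receptor genes. The other 2, HTRA2 and HTRA3, are serine peptidase genes that share the letters HTR and are described apart. A gene was represented by its probe set with the highest mean over the 18 arrays, a probe set being the group of short probes that reports one transcript.

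RNA from cerebral cortex (called brain here), liver and leg muscle was hybridised to 18 Affymetrix chicken arrays, 3 for each of 6 groups. All birds were raised at 28 ± 1 °C for 8 days, after which the control birds were sampled (time T0) and the heated birds were sampled after 3 h at 40 ± 1 °C (time T3). Sampling time and heat therefore cannot be told apart. The labels give 24 birds, 12 male and 12 female, and number the arrays as biological replicates, but not which bird or sex an array came from or whether birds were pooled, nor the breed.

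Ionotropic receptors (AMPA, kainate, NMDA, GABA-A, glycine and nicotinic) are ion channels built from several subunits, each subunit coming from its own gene. Glutamate channels excite the receiving neuron, GABA-A and glycine channels mostly inhibit it in the mature brain, and nicotinic channels open to acetylcholine in brain and at the junction of nerve and skeletal muscle. Metabotropic glutamate, muscarinic, dopamine and nearly all serotonin receptors act through G proteins instead and adjust the release of transmitter or the excitability of the cell.

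The deposited values are intensities on a linear scale. Array medians lay between 79.7 and 99.3. Background was judged by 6 probe sets for bacterial trp transcripts, which read up to 65.0 in brain, 97.6 in liver and 60.6 in muscle. Arrays of one group correlated at 0.976 to 0.993. The labelled tissues carried their markers: 9 neuron markers summed to 42856 to 43735 on the brain controls against a mean of 553.9 in liver and 469.3 in muscle, and NEUROD6, a gene of forebrain excitatory neurons, read 3360, 2110 and 2526 on the brain controls. On the brain heat arrays, some markers of other tissues read higher than on the controls, although the sums of their lists did not on every array. Whether these transcripts came from other tissues was not tested. The 11 hepatocyte markers summed to 55514 on heat 1, 8674 on heat 2 and 11646 on heat 3, against 11558 to 22479 on the controls. Of the 8 tested, 3 rose and none fell, and these 3 were higher on all heat arrays: ALB (albumin) read 13260, 756.4 and 1099 against 54.1 to 65.7 on the controls, FGB 5749, 192.3 and 425.3 against 36.6 to 48.8, and FGG 7123, 160.5 and 485.4 against 15.3 to 20.8 (limma adjusted p = 0.024, 0.045 and 0.036). The 10 skeletal muscle markers summed to 6925, 6051 and 4556, against 4745 to 5330 on the controls. Of the 5 tested, ACTA1, TNNT3 and ACTN2 rose (log2 3.05, 2.498 and 1.44, limma adjusted p = 0.013, 0.0060 and 0.020), and PVALB, which is also a gene of inhibitory neurons, fell by 0.86 (limma adjusted p = 0.013). In the 6 fits without one brain array, TNNT3 was called in 5, ACTA1, ACTN2 and PVALB in 3, ALB in 2 and FGB in 1. FGG was called in 0 of the 5 such fits in which it was tested.

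The first question was which receptor genes differed between heated and control brain. The AMPA, NMDA and kainate subunit genes GRIA4, GRIA2, GRIN2A and GRIK2 rose, by 1.43-fold to 1.72-fold, and no receptor fell on the probe set that represents its gene. A receptor was tested in a tissue where its mean was at or above that of the median probe set, which kept 50 of 75 receptors in brain at intensities of 96.1 or more. The 4 called genes are 8% of the 50, below the 12.3% called among all 19220 probe sets tested, so receptor genes were not called more often than other genes (limma, Benjamini-Hochberg adjusted p under 0.05). Of all probe sets 6.55% rose and 5.74% fell. Without adjustment, 10 of the 50 had p under 0.05, and 31.9% of all probe sets did. The heat and control arrays did not overlap for 12 receptors, 9 higher and 3 lower in heat, which is 24% against 36.5% of all probe sets (18.3% higher and 18.2% lower). The median log2 change of the 50 receptors was 0.11, against -0.001 over all probe sets tested. Of the 50 changes 34 were above 0, 68% against 49.8% of all probe sets. Relative to the control mean, the receptor medians were -0.01, 0.10 and 0.15 on heat 1, 2 and 3, so heat 1 did not show this shift. The median size of a change was 0.16 for receptors and 0.19 for all probe sets. No receptor reached a 2-fold change. Within a log2 of 0.5 stayed 44 of the 50, a share like that of all probe sets (16929 of 19220).

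**Figure D1:**
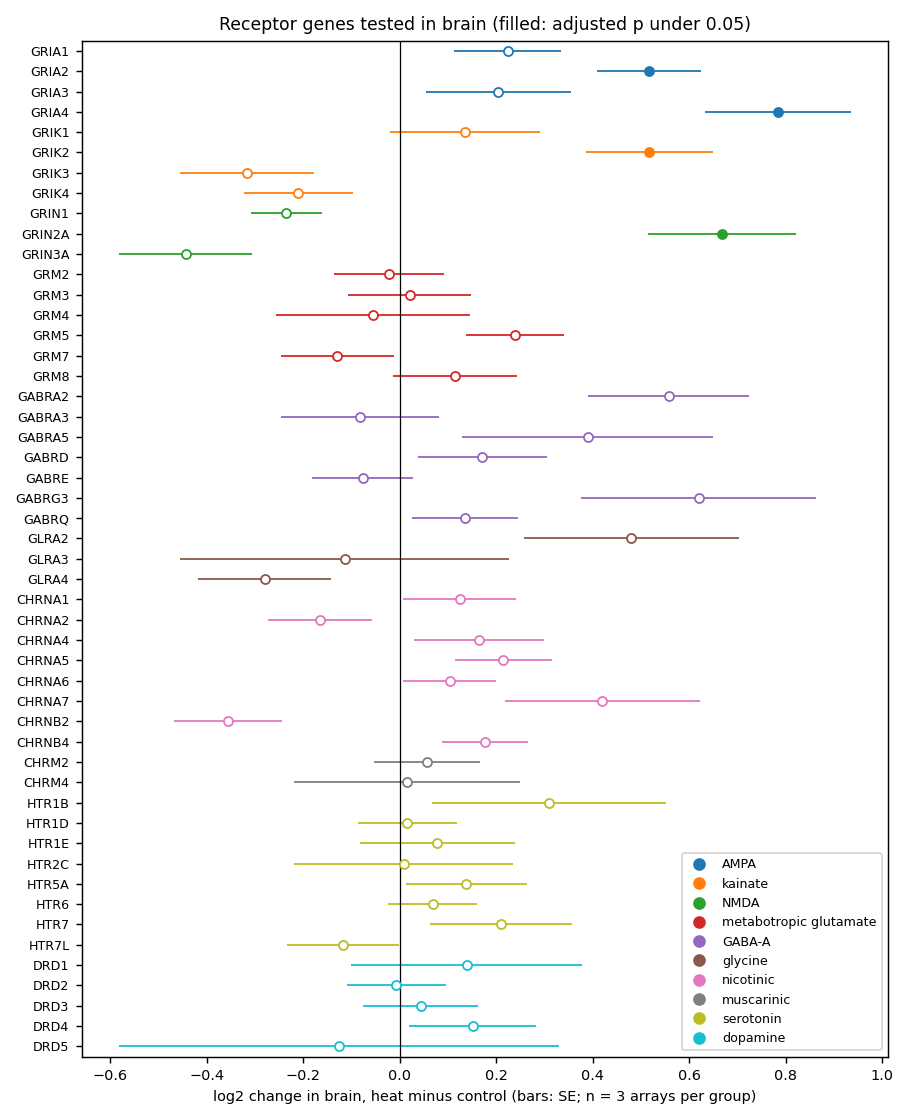
Log2 change between heated and control brain (x axis, heat minus control) for the 50 receptor genes tested, one row per gene and coloured by family; points are the limma estimates and bars their SE, with 3 arrays per group. The 4 filled points, GRIA2, GRIA4, GRIK2 and GRIN2A, have an adjusted p under 0.05 and lie between 0.52 and 0.78; the other genes lie between -0.44 and 0.62.

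AMPA receptors carry most fast excitatory transmission, and their 4 subunit genes were all tested in brain. All 4 changes were above 0, with a median of 0.37, and 2 were called. GRIA4 read 174.5, 261.3 and 181.7 on the control arrays and 358.6, 370.7 and 352.6 on the heat arrays. Every heat array lay above every control array, and the heat arrays were closer together than the controls. The mean intensity rose from 205.8 ± 48.2 to 360.6 ± 9.21 (SD, n = 3 arrays per group), a log2 change of 0.78 (SE 0.15, 1.72-fold, limma adjusted p = 0.025). Folds for heat are on the log2(intensity + 16) scale, which understates those of low genes.

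GRIA2 encodes the subunit that, in mammals, makes AMPA channels poorly permeable to calcium. Its intensities were 3035, 3003 and 2915 on the controls and 4771, 4500.5 and 3640 on the heat arrays. The controls lay close together and heat 3 was the lowest of the heat arrays, still above all controls. The mean rose from 2984 ± 62.5 to 4304 ± 590.4 (SD, n = 3 arrays per group), a log2 change of 0.52 (SE 0.11, 1.43-fold, limma adjusted p = 0.029).

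GRIA2 has 4 probe sets on the array, and all 4 rose. The other 3 went from a mean of 1228 to 2147, from 444.9 to 813.7 and from 372.5 to 671.5. Their log2 changes were 0.79, 0.85 and 0.82 (limma adjusted p = 0.015, 0.014 and 0.014), larger than that of the brightest one. GRIA1 and GRIA3, whose products join the same channels, had changes of 0.22 (SE 0.11, limma adjusted p = 0.20) and 0.20 (SE 0.15, limma adjusted p = 0.38). Of their other tested probe sets, the GRIA1 one had 0.27 and the GRIA3 ones had 0.15 and -0.06. The other probe set of GRIA4 was below the tested range and read a mean of 37.4 on the controls and 40.1 on the heat arrays, under the highest trp control.

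**Figure D2:**
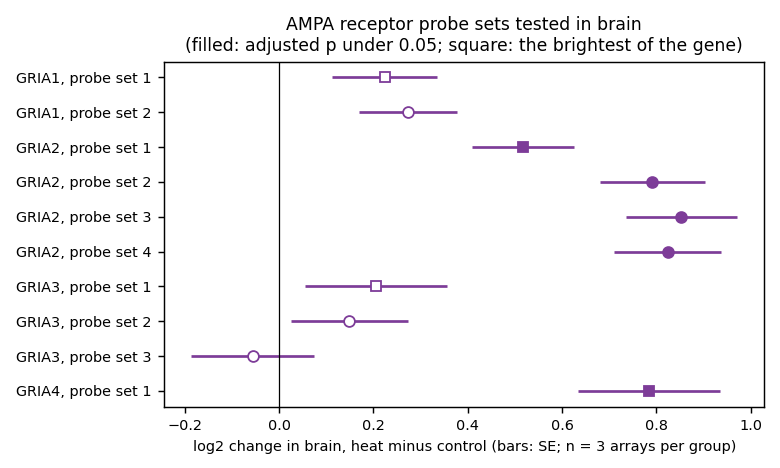
Log2 change in brain (x axis, heat minus control) of the 10 tested probe sets of the AMPA receptor genes, with SE bars and 3 arrays per group; squares mark the probe set with the highest mean, and filled symbols an adjusted p under 0.05. The 4 GRIA2 probe sets lie between 0.52 and 0.85, and the GRIA1 and GRIA3 probe sets between -0.06 and 0.27.

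NMDA receptors need glutamate together with glycine or D-serine, and admit calcium. GRIN2A, one of their glutamate-binding subunits, read 283.5, 362.4 and 333.1 on the controls and 572.9, 595.1 and 424.9 on the heat arrays. All heat arrays lay above all controls, heat 3 again the lowest of them. The mean rose from 326.3 ± 39.9 to 530.9 ± 92.6 (SD, n = 3 arrays per group), a log2 change of 0.67 (SE 0.15, 1.59-fold, limma adjusted p = 0.034).

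The other tested NMDA subunit genes lay lower in heat and were not called. GRIN1, the subunit present in every NMDA receptor, read 5168, 5077 and 4903 on the controls and 4124, 4225 and 4523 on the heat arrays. GRIN3A, which in mammals lowers calcium entry, read 1021, 1073 and 841.1 on the controls and 652.9, 660.9 and 833.5 on the heat arrays. For both genes every heat array lay below every control, although heat 3 was only just below control 3 for GRIN3A. The log2 changes were -0.23 for GRIN1 (SE 0.074, limma adjusted p = 0.070) and -0.44 for GRIN3A (SE 0.14, limma adjusted p = 0.067). GRIN2B read 76.4 to 90.7 on the 6 brain arrays and was below the tested range. GRIN3A was chosen for mention after its values were seen, as were the uncalled genes named below other than the brightest of each family.

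Kainate receptors, the third class of glutamate channel, were represented by 4 genes with changes in both directions (median -0.04). GRIK2 read 91.2, 91.8 and 107.9 on the controls and 127.9, 176.1 and 135.8 on the heat arrays. The heat arrays lay above all controls, with heat 2 highest, and the controls lay near the lower end of the tested range. The mean rose from 97.0 ± 9.47 to 146.6 ± 25.9 (SD, n = 3 arrays per group), a log2 change of 0.52 (SE 0.13, 1.43-fold, limma adjusted p = 0.042). GRIK3, the brightest kainate probe set in unheated brain, read 1722, 1253 and 1767 on the controls and 1217, 1314 and 1225 on the heat arrays, which overlapped (log2 -0.32, SE 0.14, limma adjusted p = 0.16).

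**Figure D3:**
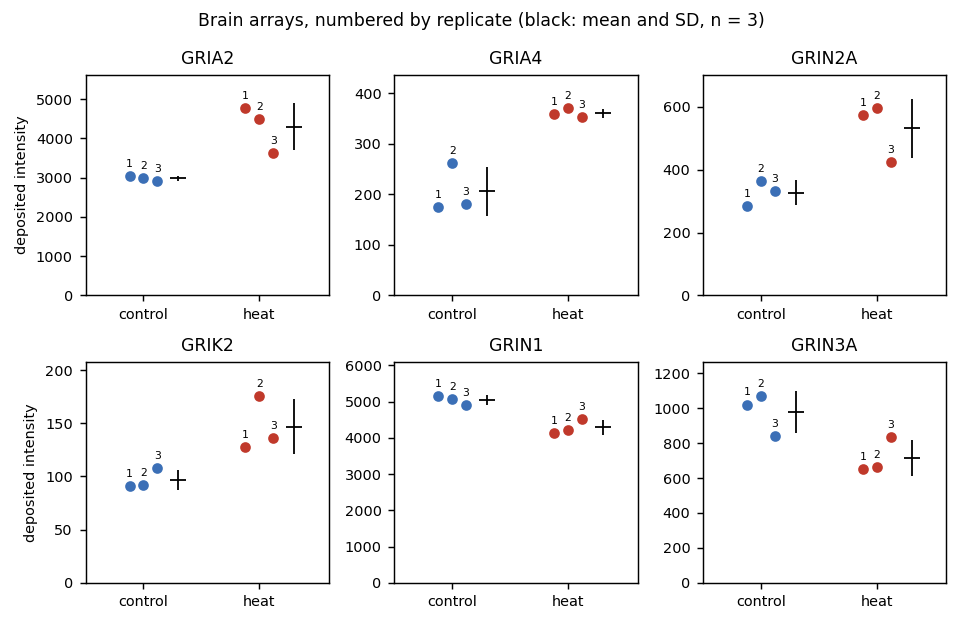
Deposited intensity (y axis, linear from 0) on each brain array for the 4 receptor genes called in brain and for GRIN1 and GRIN3A, which were not called; numbers are replicate numbers, and black marks the mean and SD of 3 arrays. For GRIA2, GRIA4, GRIN2A and GRIK2 the 3 heat arrays lie above the 3 controls, and for GRIN1 and GRIN3A below them.

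The 4 calls depended on single arrays. Without heat 1, the array with the highest hepatocyte marker sum, all 4 genes were called (limma adjusted p from 0.0084 for GRIA4 to 0.025 for GRIN2A). Without control 1, control 3 or heat 2, none of the 4 was called, with adjusted p from 0.086 to 0.15. The number of probe sets called on the whole array then fell from 2361 to 11, 21 and 19. Without control 2 only GRIA4 was called (adjusted p = 0.029), and without heat 3 all but GRIK2 (adjusted p = 0.068). The log2 changes stayed above 0 in each of these fits, between 0.69 and 0.96 for GRIA4, 0.44 and 0.63 for GRIA2, 0.57 and 0.82 for GRIN2A and 0.39 and 0.60 for GRIK2.

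Cell types and brain regions were followed through their markers. The 9 neuron markers summed to 42776 to 44715 on the heat arrays, a range that contains that of the controls. Of these 9, 2 rose: SYT1, a synaptic vesicle protein (log2 0.35, limma adjusted p = 0.032), and MAP2, a dendritic microtubule protein (log2 0.81, limma adjusted p = 0.020). Some other sums differed more between arrays. Choroid plexus markers summed to 25552, 2959 and 14189 on heat 1 to 3, against 12646 to 25775 on the controls. Erythrocyte markers summed to 19944, 9871 and 5999 against 13831 to 20438. Microglia and macrophage markers summed to 2849, 1352 and 1822 against 2236 to 2773. In unheated liver the choroid plexus, erythrocyte, and microglia and macrophage lists summed to a mean of 17265, 23679 and 27890. Their sums are therefore not particular to cells of the brain. No gene of these lists was called. The other cell types of the tissue gave 3 calls: S100B, an astrocyte marker (log2 -0.83, limma adjusted p = 0.032), and CNP, an oligodendrocyte marker (-1.02, 0.046), fell, and PECAM1, an endothelial marker (1.03, 0.024), rose. Each was the one gene called among the 6 tested of its list. The median log2 changes of these lists were -0.09 (astrocyte), -0.35 (oligodendrocyte) and -0.10 (endothelium), so the endothelial list did not rise with PECAM1. SIX3 and NKX2-1, transcription factors of particular forebrain regions, fell by 1.32 and 0.52 on the log2 scale (limma adjusted p = 0.020 and 0.036). SIX3 was the one gene called of 8 tested telencephalon genes, and NKX2-1 of 4 tested diencephalon and hypothalamus genes. Of 5 tested midbrain, cerebellum and hindbrain genes, none was called. These marker calls also depended on single arrays. In the 6 fits without one brain array, MAP2 and SIX3 were called in 3, PECAM1 and NKX2-1 in 2, and SYT1, S100B and CNP in 1. Averaging the probe sets of a gene lost the calls of SYT1 and CNP. In unheated liver and muscle the 4 called receptors read between 9.48 and 77.5, below their brain levels. The 3'/5' intensity ratio of EF1A, a measure of RNA integrity, was 1.47 to 1.56 on the brain controls and 1.396, 1.32 and 1.36 on the heat arrays. The same ratio overlapped between groups for actin (1.33 to 1.39 against 1.35, 1.17 and 1.08) and GAPDH (1.05 to 1.11 against 1.08, 1.07 and 1.04). The part of transcripts of other tissues, of other cell types, of regional sampling and of RNA integrity in the receptor changes was not tested. In these bulk samples a change in the number of cells of a type and a change in RNA per cell cannot be told apart.

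Metabotropic glutamate receptors tune synapses through G proteins, and none of the 6 tested genes was called (log2 from -0.13 to 0.24, median -0.001). GRM7, a presynaptic receptor that restrains release, was the brightest of them in unheated brain. It read 3406, 2932 and 2762 on the controls and 2575, 2578 and 3170 on the heat arrays, which overlapped (log2 -0.13, SE 0.12, limma adjusted p = 0.48). GRM5, which raises intracellular calcium, had separated groups and a log2 change of 0.24 (SE 0.10, limma adjusted p = 0.14). A second GRM5 probe set had a larger change of 0.69 (SE 0.21, limma adjusted p = 0.062). In brain this second probe set was the brighter, with a control mean of 138.6 against 112.5.

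GABA-A receptors are the main inhibitory channels of the forebrain. Of 15 GABA-A genes, 7 were tested in brain and none was called (log2 from -0.08 to 0.62, median 0.17). Among the probe sets that represent the genes, that of GABRA2, the alpha-2 subunit, came closest. It read 360.8, 414.4 and 473.5 on the controls and 719.9, 671.1 and 484.6 on the heat arrays. Heat 3 lay just above control 3, and the log2 change was 0.56 (SE 0.17, limma adjusted p = 0.061). GABRG3, a gamma subunit, had separated groups as well, with 203.2 on heat 2 against 62.0 to 106.1 on the other arrays (log2 0.62, SE 0.24, limma adjusted p = 0.12). A second GABRA2 probe set had overlapping groups (log2 0.35, SE 0.19, limma adjusted p = 0.24). A second GABRA3 probe set read 254.9 to 327.1 on the controls and 188.1 to 223.2 on the heat arrays (log2 -0.45, SE 0.13, limma adjusted p = 0.051). The GABRA3 probe set that represents the gene had -0.08 (limma adjusted p = 0.77). In brain it was the dimmer of the pair, with a control mean of 122.7 against 292.8. GABRQ, the theta subunit and the brightest of the family, read 2003, 1749 and 1993 on the controls and 2008, 2386 and 1938 on the heat arrays, which overlapped (log2 0.14, SE 0.11, limma adjusted p = 0.43). Of the 4 glycine receptor genes, 3 were tested and none was called (log2 from -0.28 to 0.48). GLRA4, the brightest, read 258.3 to 335.8 on the controls and 223.0 to 283.0 on the heat arrays (log2 -0.28, SE 0.14, limma adjusted p = 0.20). A second GLRA4 probe set had separated groups, lower in heat (log2 -0.44, SE 0.12, limma adjusted p = 0.052).

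In the cholinergic families, 8 of 15 nicotinic and 2 of 4 muscarinic genes were tested in brain and none was called. CHRNB2, the beta-2 subunit that pairs with alpha-4 in most nicotinic receptors of the mammalian brain, read 571.0, 545.0 and 581.4 on the controls. On the heat arrays it read 436.9, 393.9 and 489.2, all below the controls (log2 -0.36, SE 0.11, limma adjusted p = 0.069). A second CHRNB2 probe set had overlapping groups (log2 -0.13, SE 0.11, limma adjusted p = 0.44). CHRNA4, the partner of CHRNB2, had a log2 change of 0.16 (SE 0.13, limma adjusted p = 0.43). CHRNA5, an accessory subunit, and CHRNB4, a beta subunit, had separated groups with log2 changes of 0.22 and 0.18 (limma adjusted p = 0.18 and 0.21). CHRM4, an inhibitory muscarinic receptor, varied widely between controls, at 245.0, 224.0 and 418.4, and read 228.6 to 342.6 on the heat arrays (log2 0.02, SE 0.23, limma adjusted p = 0.97).

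Monoamine receptors bind serotonin or dopamine. Of 14 serotonin genes 8 were tested, with log2 changes from -0.12 to 0.31, and of 5 dopamine genes all 5 were tested, with log2 changes from -0.13 to 0.15. None was called in either family on the probe set that represents the gene. A second probe set of HTR7L read 149.1, 157.0 and 159.1 on the controls and 103.5, 94.3 and 117.0 on the heat arrays, without overlap, and fell by 0.50 on the log2 scale (limma adjusted p = 0.028). The brighter HTR7L probe set did not follow it, with a log2 change of -0.12 (SE 0.12, limma adjusted p = 0.53) and overlapping groups. The call of the second probe set was kept in 2 of the 6 fits without one brain array. HTR1D, an inhibitory serotonin receptor, read 604.1 to 697.5 on the controls and 639.8 to 691.6 on the heat arrays (log2 0.02, SE 0.10, limma adjusted p = 0.93). DRD5, a receptor that stimulates cyclic AMP production, was the most variable in brain of the named receptor genes. It read 888.5, 436.9 and 881.6 on the controls and 288.0, 1053 and 855.0 on the heat arrays (log2 -0.13, SE 0.46, limma adjusted p = 0.88).

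Genes that make, clear or anchor the transmitters and receptors changed in both directions in brain. Of 73 such genes listed, 58 were on the array, 45 were tested, 4 rose and 3 fell, which is 15.6% against 12.3% of all probe sets. The risers were SLC1A1, a glutamate transporter (log2 0.45, limma adjusted p = 0.030), BCHE, butyrylcholinesterase (0.58, 0.030), DLG1, a scaffold of glutamate receptors (0.49, 0.025), and CAMK2D, a calcium-dependent kinase (0.56, 0.0495). The falls were in ACHE, acetylcholinesterase (log2 -0.59, limma adjusted p = 0.029), SLC6A9, a glycine transporter (-0.51, 0.037), and SLC32A1, which loads GABA and glycine into vesicles (-0.40, 0.049). DLG1 read 2827, 3307 and 3119 on the controls and 4173, 4763 and 4087 on the heat arrays. ACHE read 4310, 3579 and 3331 on the controls and 2702, 2162 and 2552 on the heat arrays. Neither gene's groups overlapped. In the 6 fits without one brain array, DLG1 was called in 3, BCHE in 2 and each of the other 5 in 1. Of 11 other ways of processing, SLC32A1 was called in 5 and CAMK2D in 6. The remaining partner genes named were called in 8 or 9 of the 9 to 11 in which they were tested. Averaging the probe sets of a gene lost the calls of DLG1, BCHE and SLC32A1.

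Receptor genes were next compared between tissues without heat. Over all 75 receptors, with no filter on low values, 45 were called higher and 10 lower in brain than in liver, 60% and 13.3% against 33.8% and 25% of all probe sets. Against muscle 42 were higher and 12 lower, 56% and 16% against 33.1% and 24.6%. Many of these differences were to a liver or muscle reading no brighter than the trp controls, so their sizes are not measured. With the filter, a gene was tested where it passed in either tissue. Against liver 52 receptors were tested, 39 higher and 6 lower (40.1% and 32.1% of all probe sets, 72.2% in all). Of these 52, 36 had entered through their brain level alone, and all 36 were among those higher, as that way of entering favours. Of the 13 that passed in both tissues, 3 were higher and 4 lower in brain. Against muscle 55 were tested, 39 higher and 8 lower (40.4% and 30.1%, 70.5% in all). There 33 had entered through brain alone, all called higher, and of the 16 that passed in both, 6 were higher and 3 lower. The filtered counts therefore say little of receptors as a group. Quantile scaling over the 9 arrays moved the median difference of all probe sets tested from 0.08 to -0.10 against liver and from 0.10 to -0.12 against muscle; no receptor called under either scaling changed direction, and the calls of CHRNA5, GABRD and GRIA1 against muscle were lost.

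Counting a gene as above background where any of its probe sets averaged more than the highest trp control of the same tissue, 58 receptors were above it in brain, 17 in liver and 39 in muscle. For 23 this held in brain only, and for 12 in none of the 3 tissues. By the brightest probe set of each gene alone, a stricter count, 81.6% of all genes were above it in brain, 67.5% in liver and 80.1% in muscle. The receptor counts therefore do not set receptors apart from other genes in brain. In liver and muscle, 17 and 39 of 75 receptors are smaller shares than those of all genes, even by the more lenient count. All 18 AMPA, kainate, NMDA and metabotropic glutamate genes were above it in brain, as were all 5 dopamine and all 4 glycine genes, 10 of 15 GABA-A, 9 of 15 nicotinic, 10 of 14 serotonin and 2 of 4 muscarinic genes. A low reading may come from a probe set that hybridises poorly and does not show that a gene is off.

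Called higher in brain than in both other tissues were 37 receptors, counted in the filtered comparisons. Most of them had entered through their brain level alone, and the count was not made for all probe sets. It therefore says little of receptors as a group. Folds between tissues are ratios of geometric mean intensities of the brightest probe set, and where that probe set was not above the highest trp control in the dimmer tissue, the fold is a lower bound against that control. Other probe sets of GRIA2 and GRIK3 were above it in muscle, of GRM4 and GRM7 in liver and of DRD5 in both. At least 10-fold over both were 8 genes: GRIN1, GRIA2, GRIA3, GRIK3, GRM3, GRM4, GRM7 and GABRQ. GRIN1 averaged 5049 ± 134.8 (SD, n = 3 arrays) in brain, 55.1 in liver and 44.9 in muscle, at least 51.7-fold and at least 83.3-fold higher in brain. GRIA2 was at least 30.6-fold higher than in liver and at least 49.2-fold higher than in muscle. GRM7 was at least 31.0-fold higher than in liver and 26.4-fold higher than in muscle, where it averaged 115.2. GABRQ was at least 19.6-fold and at least 31.5-fold higher.

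The brightest probe sets of the other families spanned a wide range of brain enrichment. GRIK3 averaged 12.8 in liver and 12.4 in muscle, and was at least 16-fold and at least 25.8-fold higher in brain. DRD5 was at least 7.17-fold and at least 11.5-fold higher, and CHRM4 at least 2.91-fold and at least 4.69-fold. CHRNB2 was 3.02-fold higher than in liver and 4.37-fold higher than in muscle, and HTR1D 2.68-fold and 4.05-fold. GLRA4, with means of 303.2 (brain), 239.7 (liver) and 287.4 (muscle), was not called in either comparison (limma adjusted p = 0.091 and 0.65).

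**Figure D4:**
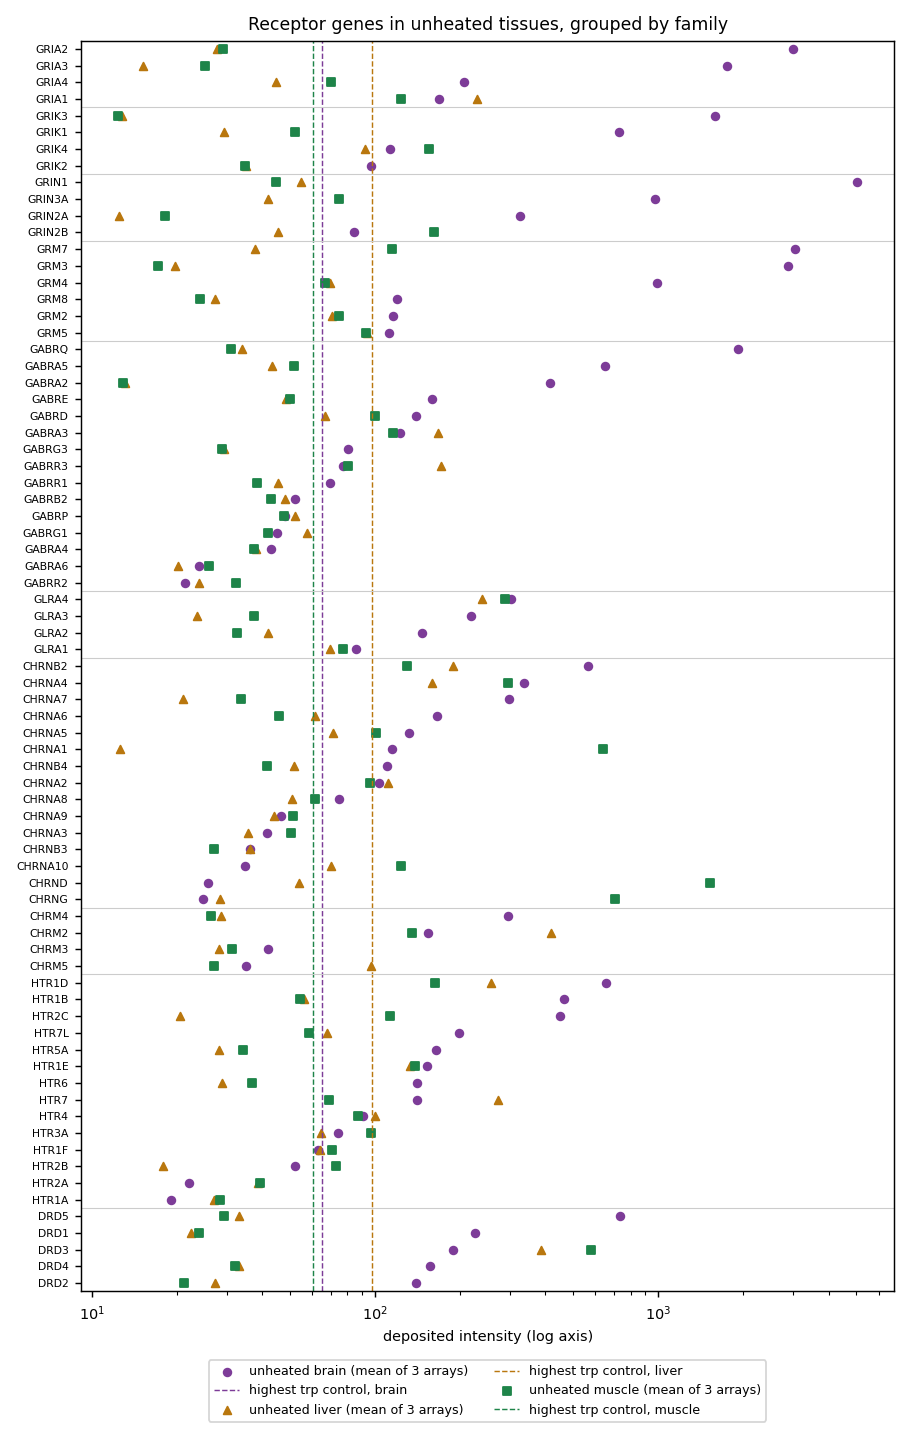
Mean deposited intensity (x axis, log scale) of the 75 receptor genes in unheated brain, liver and muscle, 3 arrays each, grouped by family; dashed lines mark the highest trp control of each tissue. Positions compare tissues within a row; intensities of different genes are not comparable. Most brain points lie to the right, while CHRND, CHRNG, CHRNA1 and DRD3 are highest in muscle and CHRM2 and HTR7 in liver.

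In leg muscle the receptor genes furthest above brain were subunits of the muscle acetylcholine receptor, the channel that triggers contraction. CHRND, the delta subunit, read 1615, 1443 and 1505 on the muscle controls, against 21.1 to 32.1 in brain and 48.0 to 59.9 in liver. CHRNG, the gamma subunit, which in mammals belongs to the embryonic form of the receptor, read 929.1, 583.7 and 595.0 in muscle and 22.9 to 26.9 in brain. CHRNA1, the alpha subunit that binds acetylcholine, read 772.2, 513.8 and 635.6 in muscle, against 99.5 to 132.6 in brain and 9.75 to 16.5 in liver. Muscle and brain did not overlap for any of them. CHRND was at least 23.4-fold, CHRNG at least 10.6-fold and CHRNA1 5.54-fold higher in muscle than in brain. In RefSeq's annotation of the GRCg7b assembly, CHRND and CHRNG are neighbours.

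Receptors not known as muscle junction subunits were also higher in muscle or liver than in brain. DRD3, a dopamine receptor that inhibits cyclic AMP production, read 528.7, 685.0 and 530.3 in unheated muscle and 487.7, 325.9 and 348.3 in unheated liver, against 192.1, 168.8 and 205.8 in brain. It was 3.06-fold higher in muscle and 2.02-fold higher in liver than in brain. CHRNA4, among the 5 brightest in muscle, averaged 294.9 there and 335.4 in brain (log2 difference 0.17, limma adjusted p = 0.25). In liver, CHRM2, an inhibitory muscarinic receptor known best from the heart, read 409.7, 390.7 and 457.3, 2.73-fold above its level in brain. HTR7, a serotonin receptor that raises cyclic AMP, read 212.8, 342.5 and 262.3 in liver, 1.90-fold above brain.

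**Figure D5:**
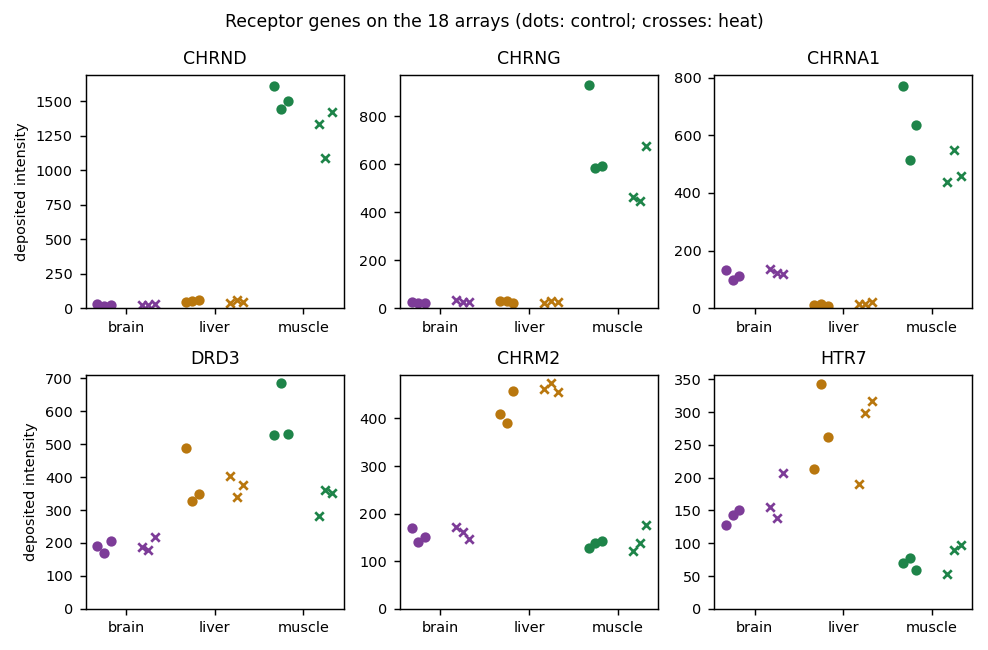
Deposited intensity (y axis, linear from 0) on all 18 arrays of 6 receptor genes bright in muscle or liver; dots are control arrays and crosses heat arrays, with replicates 1 to 3 from left to right. CHRND, CHRNG and CHRNA1 are highest in muscle, and for DRD3 the 3 heated muscle arrays, 283.1 to 360.0, lie below the 3 muscle controls, 528.7 to 685.0.

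In heated liver, 1 of the 17 receptors tested was called, 5.88% against 13.1% of all probe sets (6.94% higher). It was CHRNA5, whose product modifies nicotinic channels without forming a complete binding site. It read 73.1, 64.7 and 76.0 on the controls and 100.9, 104.3 and 90.2 on the heat arrays. The groups did not overlap, but all 3 controls and 1 heat array lay under the highest trp control of liver, 97.6. The log2 rise was 0.39 after quantile normalization of the liver arrays (SE 0.11, 1.31-fold, limma adjusted p = 0.044). In the 4 fits without 1 liver array in which it was tested, CHRNA5 was not called (adjusted p from 0.068 to 0.15). The median log2 change of the 17 receptors was -0.10, against -0.03 over all probe sets. Among the brightest in liver, CHRM2 changed by 0.06, HTR7 by -0.07, DRD3 by -0.11, HTR1D by -0.10 and GLRA4 by -0.10, with limma adjusted p from 0.69 to 0.85.

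In heated muscle, none of the 23 receptors tested was called by limma, and 1 of 19220 probe sets was, 0.0052%. Without adjustment 3 of the 23 had p under 0.05, against 16.1% of all probe sets, and a limma fit over all 18 arrays called 1. The arrays did not overlap for 5 of the 23, 21.7% against 21.8%. The gene called over 18 arrays was DRD3. It read 528.7, 685.0 and 530.3 on the muscle controls and 283.1, 360.0 and 352.0 on the heat arrays, which did not overlap (log2 -0.78, SE 0.17, limma adjusted p = 0.12). CHRND, CHRNG and CHRNA1 had log2 changes of -0.25, -0.39 and -0.39 (SE 0.15, 0.24 and 0.19), with limma adjusted p from 0.36 to 0.47.

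The heat effect itself was compared between tissues as an interaction over the 18 arrays. It was called between brain and liver for 1 of 53 receptors, 1.89% against 1.7% of all probe sets; 36 of the 53 had passed the filter in brain alone. GRIA4 had a log2 change of 0.78 in brain and -0.02 in liver, a difference of 0.81 (SE 0.18, limma adjusted p = 0.030). In liver GRIA4 read 41.7 to 48.0 on all 6 arrays, below the highest trp control, where a change may not show, so the difference restates the brain change and does not show that liver responded differently. With replicate number as a block within each tissue the adjusted p was 0.064. The call was also lost in 10 of the 12 fits without 1 array (adjusted p from 0.0501 to 0.088), those without brain control 1, brain control 3, brain heat 2, brain heat 3 or any liver array. Between brain and muscle none of 57 receptors was called by limma, against 0.341% of all probe sets. GRIA4 had a difference of 0.79 there (SE 0.18, limma adjusted p = 0.068). GRIA2, also called in brain, had log2 changes of 0.73 in liver and 0.64 in muscle. The muscle change leaned on muscle heat 3, where GRIA2 read higher than on every other muscle array, as given under the other observations. The heat effect on GRIA2 in brain was not called as different from that in liver or muscle (limma adjusted p = 0.84 and 0.95). Without heat the representing probe set of GRIA2 was not above the highest trp control in liver or muscle.

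The peptidase genes HTRA2 and HTRA3 are caught by the letters HTR but are not receptors. HTRA2, a mitochondrial protease, read 806.5, 858.3 and 913.9 on the liver controls and 549.3, 610.2 and 635.9 on the heat arrays. These deposited readings did not overlap between groups. After quantile normalization of the liver arrays HTRA2 fell by 0.64 on the log2 scale (SE 0.13, limma adjusted p = 0.022). That call was lost without liver control 2, control 3 or heat 1, where the adjusted p reached 0.087. In brain and muscle HTRA2 had log2 changes of -0.40 and -0.56 (limma adjusted p = 0.075 and 0.25). HTRA3, a secreted protease, was not called in brain or muscle (limma adjusted p = 0.59 and 0.90) and not tested in liver.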

How the data were processed

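Biotinylated cRNA was made from total RNA and hybridised to Affymetrix arrays, per the labels' protocols. The authors deposited a linear intensity for each probe set on each array, ranging from 1 to 28637. GCOS 1.4 is named in the submitters' processing notes without a role; how the intensities were summarised, background-corrected and scaled, and the genome build, were not given in the sources used here. Of 38535 probe sets, 96 controls were left out. Of the other 38439, 27168 have 1 gene symbol, 177 several and 11094 none; all 77 genes matched RefSeq's table (GRCg7b) under the same symbol. Of the 75 receptors, 39 have 1 probe set and 36 several; of 19 with several tested in brain, 15 agreed in sign and 4 (GRIA3, GRM2, GRM4, GRM7) did not.

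Values were analysed as log2(intensity + 16). Deposited scaling was kept where trimmed means (2% off each end) lay within 10% (brain 1.07, muscle 1.04); liver (1.12) was quantile normalized. limma 3.58.1 in R 4.3.3 (lmFit, eBayes with intensity trend, two-sided) was fitted per tissue on the 19220 probe sets at or above the median, with Benjamini-Hochberg adjustment over all of them and a threshold of 0.05. Tissues were compared over the 9 control arrays, heat effects by interaction over 18. The p-values measure the spread between 3 arrays per group, and the number of arrays limits the precision. The steps were tested on simulated data. Members and lists were chosen with earlier results of these data known. Genes named by rule were those called in brain, liver, muscle or the interaction, the brightest of each family in unheated brain, the 5 brightest in unheated liver and muscle, and partner genes called in brain.

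Replicate numbers did not pair control and heat arrays: same-numbered deviations correlated at -0.09, -0.08 and -0.04 in brain, 0.12, 0.37 and -0.09 in liver and -0.45, 0.04 and -0.13 in muscle. Between unheated brain and liver they correlated at 0.11, 0.12 and 0.13, so those numbers were taken as pairs from the data; the blocked fit called 46 receptors against 45. Between unheated brain and muscle the values were 0.03, 0.22 and 0.14. Between heated brain and liver they were 0.02, -0.09 and 0.23, so the heat effect in brain minus liver was not taken as paired. Alternatives were other scalings, pseudocounts of 1 and 64, other filters, a fit over 18 arrays, no trend, array weights, the block, averaging the probe sets of a gene, and each array left out; the probe sets of GRIA2 were refitted without each array, the second HTR7L probe set under the heat alternatives, the interaction with a block shared across tissues and the unfiltered tissue counts after the data were seen.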

Additional observations from a re-analysis of the deposited data

Results flagged for a closer look

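The heat effect on GRIA4 differed between brain and liver by 0.81 on the log2 scale (limma interaction, adjusted p = 0.030). Its brain arrays rose from 174.5 to 261.3 on the controls to 352.6 to 370.7 in heat, while in liver it read 42.3 to 48.0 on the controls and 41.7 to 46.7 in heat, all below the highest trp control of liver, 97.6. A change in liver may not show at such readings, so the difference restates the brain change.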

How the results depend on the processing

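Each heat change named as called kept its direction in the alternatives it was fitted under. The 4 receptors called in brain were called under quantile scaling, equal medians, pseudocounts of 1 and 64 and no trend. The fit over 18 arrays called 4 as well, but GABRA2 in place of GRIA2, and no filter called 3, without GRIK2. A filter at the 75th percentile called 2, GRIA2 and GRIN2A, as did averaging the probe sets of a gene. GRIA4 and GRIK2 were not tested under either of these settings. Array weights called 13, 8 higher and 5 lower. Leaving out an array called 0 to 6. The receptor counts here and below are not set beside the shares of all probe sets called under the same settings. They therefore do not describe receptors as a group. With equal array medians the share of higher calls among all probe sets called in brain went from 53.3% to 37.3%, and the receptors stayed at 4 higher and 0 lower. In liver, where CHRNA5 was the 1 receptor called, no filter lost it and called 3 others (GRIA2, GRM3 and HTR5A), array weights called 4 with CHRNA5 among them, and the 75th percentile filter, no trend and the mean over probe sets 0 each; leaving out an array called 0 to 0. There equal medians and the deposited scaling moved the higher share of all calls from 53.1% to 67.4% and 69.4%. In muscle the fit over 18 arrays called 1 receptor against 0. For the heat effect in brain minus liver a pseudocount of 64 called 3 against 1 and leaving out an array 0 to 3; for brain minus muscle the pseudocount of 64 called 1 against 0 and leaving out an array 0 to 1. Between unheated tissues, leaving out an array called 43 to 46 receptors against liver and 43 to 47 against muscle.

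With replicate number as a block, 1 receptor was called in brain (GRIA4, adjusted p = 0.048), 0 in liver, and 0 for the heat effect in brain minus liver (GRIA4, adjusted p = 0.064); the numbers do not pair control with heat arrays. From weak correlations (0.11 to 0.13) the numbers were taken to pair unheated brain with unheated liver arrays, but not the heated ones. The labels do not state such a pairing. A block shared across tissues, chosen after seeing the data, called GRIA4 in brain minus liver (limma adjusted p = 0.021) and, 1 against 0, in brain minus muscle (0.046). The other 3 probe sets of GRIA2 were each called in 3 of the 6 fits without 1 brain array, and its brightest in 2. Except where the construction shows it (fewer arrays or fewer genes tested), the cause of these changes was not tested. The 25 receptors not tested in brain, the 58 in liver and the 52 in muscle lay under the median probe set of the tissue. Their low intensities, some near or under the trp controls and some above, limit what can be said of them.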

Other observations

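Muscle heat 3 read higher than the other 5 muscle arrays for several receptors that are otherwise bright in brain, chosen after their values were seen. GRIN1 read 135.1 there and 39.8 to 55.4 on the other muscle arrays, GRIA2 110.4 against 24.1 to 36.8, and GRM3 62.3 against 16.5 to 22.1. The neuron marker SYT1 read 91.2 on that array and 23.5 to 47.7 on the others, and the liver marker ALB read 17383 against 753.0 to 6020. Higher readings of genes bright in brain were not confined to that array. CACNG3 read 26.9 to 36.8 on the liver controls and 63.2 to 80.2 on the liver heat arrays. GAD1 read 42.3 to 54.8 and 63.2 to 90.4 there, all under the highest trp control of liver. CACNG2 did not rise there, at 36.2 to 42.4 and 33.7 to 35.1. The cause was not tested. In muscle, HTR2C, a serotonin receptor, read 264.1 on control 3 and 27.2 to 52.4 on the other 5 arrays.

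In RefSeq's annotation of GRCg7b, GABRG3 and GABRA5 are neighbours, with log2 changes of 0.62 and 0.39 in brain (limma adjusted p = 0.12 and 0.34). GABRA2 lies beside GABRA4 and GABRG1, which were below the tested range. CHRNB4, CHRNA3 and CHRNA5 lie together, with log2 changes of 0.18 for CHRNB4 and 0.22 for CHRNA5, neither called, and CHRNA3 not tested.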
